A study of Homo sapiens with 6 samples.

Results

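Collagen chain genes were examined in WPMY-1, a human prostate stromal cell line of myofibroblast character, given 24 mM lactate for 48 h (lactate, n = 3) or no lactate (control, n = 3). Members were all rows of the count table whose symbol has the form COL, a number, A and a number. They came to 37 of 15924 listed genes, and 28 of them were among the 13188 genes with enough counts to be tested. GENCODE release 29 holds 44 symbols of this form on GRCh38, and the other 7 were not analysed here. The cells of both groups were grown in DMEM with 10% serum, and by the study's methods the lactate was added as lactic acid in medium without bicarbonate, adjusted to a slightly acid pH. Those methods describe treatment without CO2, while the labels describe culture with CO2, so the conditions used for these libraries are not certain. The pH of the control medium is not given in the sources used here, so lactate and acidity cannot be told apart. All libraries come from 1 established line in monoculture, which limits it as a model of prostate stroma, and in bulk RNA fewer cells making a collagen and less RNA per cell cannot be told apart.

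Most collagens are secreted proteins whose chains wind around each other into a rope-like helix before export from the cell. Each gene encodes 1 chain, and several chains work only in a fixed partnership with others. Fibrillar collagens form the tensile fibres of connective tissue, type IV collagens form the sheet of basement membranes, type VI collagens form beaded filaments around cells, and FACIT collagens sit on the surface of fibrils. Stromal myofibroblasts are the main collagen producers of healing and tumour tissue.

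The lactate libraries held 20392320 to 24055634 counts and the control libraries 20238653 to 46505372. Lactate 1 and control 1 stood apart from the other libraries of their group, with a chi-square of 59.4 to 117 per degree of freedom against 7.13 between lactate 2 and lactate 3 and 10.4 between control 2 and control 3. Pairs of a lactate and a control library ran from 49.96 (lactate 2 and control 2) to 181 (lactate 1 and control 3). Lactate 1 and control 1 were thus as far from their own replicates as some lactate libraries were from controls. No library was a copy of another. All 10 stromal markers averaged at least 1 CPM (CPM are counts relative to the TMM-scaled library size), led by *VIM* at 2735 CPM, and the epithelial marker *EPCAM* averaged 0.149 CPM. The listed smooth muscle markers split, with *SMTN* at 294 CPM and *DES* at 0.050 CPM on average, and summed to 280.2 to 341 CPM in lactate libraries and 224 to 347 CPM in controls. The epithelial list summed to 819 to 1205 CPM in lactate libraries and 838 to 1275 CPM in controls, nearly all of it *KRT18* and *KRT8*, and the endothelial list to 0.573 to 1.65 CPM in lactate libraries and 0.779 to 1.76 CPM in controls. The leukocyte list summed to 78.8 to 100.5 CPM in lactate libraries and 56.3 to 60.5 CPM in controls, most of it *CD68*, and its pan-leukocyte gene *PTPRC* averaged 0.0925 CPM. What part these levels have in the results below was not tested.

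Single collagen chains moved in both directions with lactate. Of the 28 tested members, 5 rose with lactate (*COL4A1*, *COL4A2*, *COL6A2*, *COL8A2* and *COL9A2*) and 6 fell (*COL3A1*, *COL5A3*, *COL4A6*, *COL14A1*, *COL7A1* and *COL17A1*), at an adjusted p under 0.05 in edgeR's quasi-likelihood test with Benjamini-Hochberg adjustment over all tested genes. The members that rose were 17.9% of those tested, against 5.29% of all tested genes, and the members that fell were 21.4%, against 4.14%. At an unadjusted p under 0.05, 8 members were higher and 6 lower, against 13.9% of all genes each way, and in DESeq2 7 rose and 6 fell, against 8.76% and 8.28% of all genes. The median log2 fold change, lactate over control (log2 change from here), was 0.16 over the members and -0.02 over all tested genes. In 8 members (28.6%) every lactate library lay above every control, against 17.3% of all genes, and in 6 members (21.4%) every lactate library lay below every control, against 15.3%. All 11 members past the threshold were among these, and the other 3 were *COL13A1*, *COL15A1* and *COL18A1*.

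**Figure D1:**
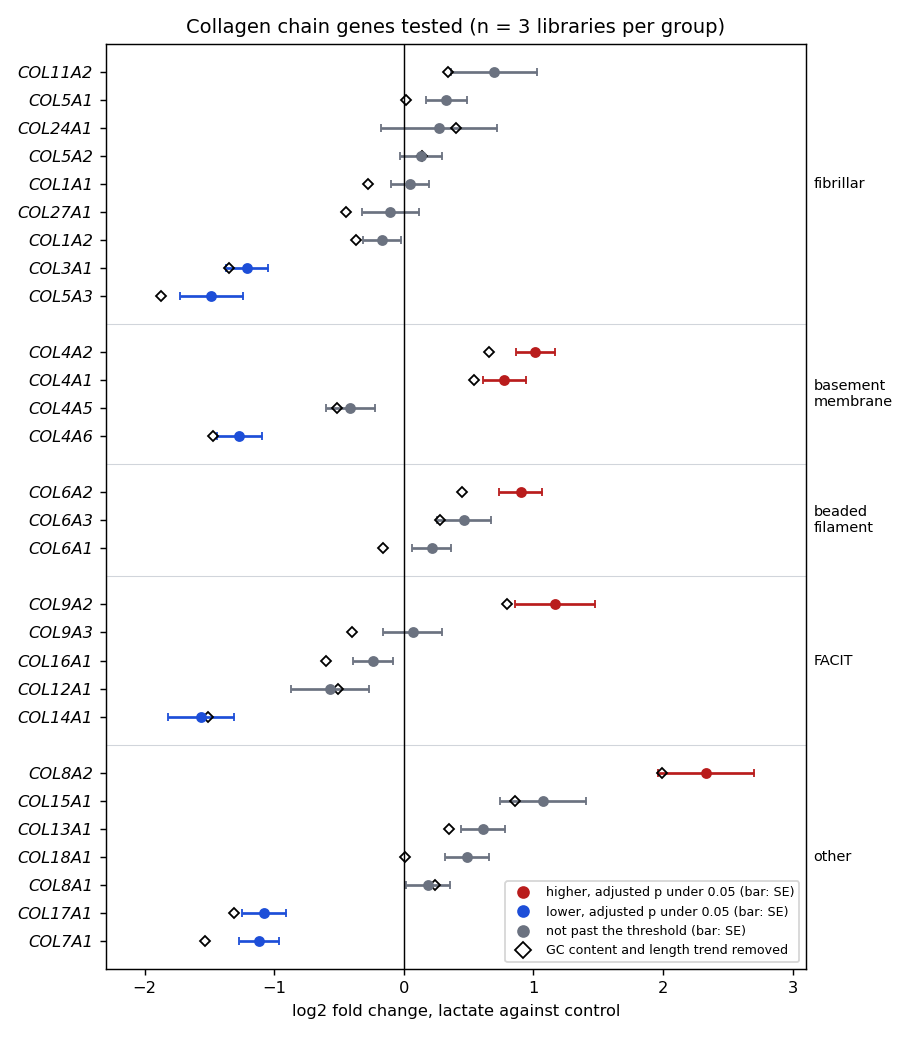
Log2 fold change of lactate against control for the 28 tested collagen genes, grouped by type, with bars for the standard error and open diamonds for the fold change after a trend on GC content and transcript length was removed. The 5 genes that rose and the 6 that fell come from all 5 types, and every one of the 11 keeps its direction when the trend is removed.

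Collagen transcripts are long and rich in G and C, with a median GC content of 59.6% against 48.7% for all tested genes, and 23 of the 28 members lay above that median. Median transcript length was 6446 bases for the members, against 3412 bases for all tested genes with annotation. Libraries differed in how counts depended on these properties, by a median of 0.30 log2 units (lactate minus control) over the members and 0.01 over all genes. With that dependence removed from each library, 5 members rose and 11 fell, against 1470 (11.5%) and 1758 (13.7%) of all genes, where the fit without removal gave 698 and 546. *COL13A1* joined the members that rose and *COL9A2* left them, while *COL1A1*, *COL1A2*, *COL4A5*, *COL12A1* and *COL16A1* joined those that fell. The member median was then -0.08. Whether the dependence is technical was not tested, so values with it removed are given below where they bear on a member.

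Collagen genes together took 0.375%, 0.505% and 0.484% of all counts in lactate 1, 2 and 3, and 0.427%, 0.395% and 0.448% in control 1, 2 and 3. The groups overlapped. Expressed per kilobase of the longest annotated transcript (RPKM), the share of collagen mRNA held by each type differed without overlap. Fibrillar chains made up 53.2% ± 2.17 of summed collagen RPKM in lactate cells and 60.9% ± 1.44 in controls (SD, n = 3 each). Basement membrane chains made up 11.1% ± 0.767 with lactate and 7.59% ± 0.588 in controls, and beaded filament chains 27.2% ± 1.38 with lactate and 20.6% ± 0.311 in controls. FACIT chains had shares of 3.91% ± 0.534 with lactate and 5.77% ± 0.981 in controls, and the remaining chains 4.54% ± 0.197 with lactate and 5.15% ± 0.147 in controls. The summed RPKM of fibrillar chains overlapped between groups, at 379 ± 26.8 with lactate and 395 ± 46.8 in controls, as did that of the remaining chains, at 32.3 ± 1.26 with lactate and 33.3 ± 2.42 in controls. The sums of basement membrane chains (79.5 ± 10.7 with lactate and 48.9 ± 2.64 in controls) and beaded filament chains (194 ± 19.4 with lactate and 133 ± 13.4 in controls) did not overlap and were higher with lactate. The FACIT sum (28.0 ± 5.88 with lactate and 37.2 ± 5.62 in controls) narrowly did not overlap and was lower with lactate. These sums and shares are over chosen members and carry no test. They were taken with the GC and length trend left in. That trend (lactate minus control) was 0.16 to 0.47 log2 units over the beaded filament chains, and 0.22 and 0.35 for *COL4A1* and *COL4A2*. Its part in the sums and shares was not tested.

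**Figure D2:**
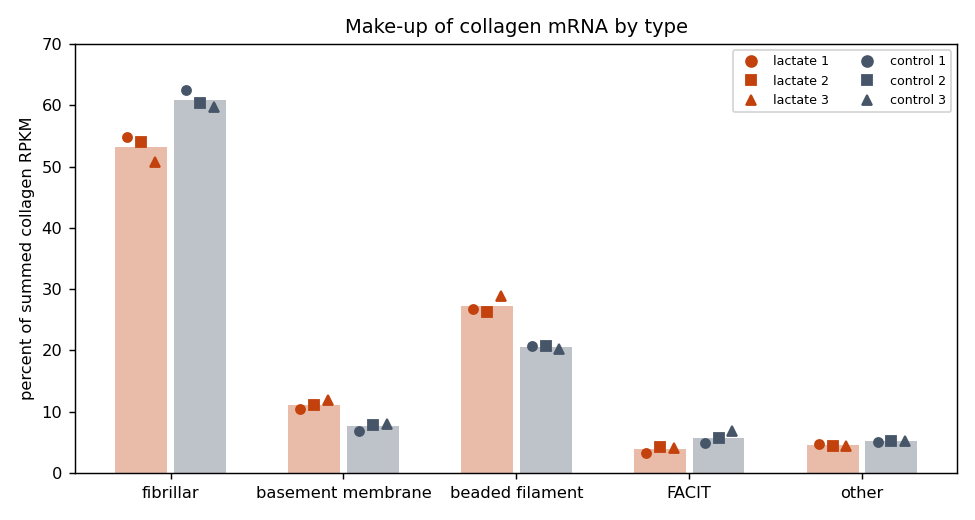
Percent of summed collagen RPKM held by each collagen type in each library, with bars for the group mean of 3 libraries and a symbol for each library. The GC and length trend was left in. Basement membrane and beaded filament chains hold a larger share in all 3 lactate libraries (10.4% or more and 26.2% or more) than in any control, and fibrillar chains a smaller one (54.8% or less).

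Among the fibrillar collagens, 2 of 9 tested genes fell and 0 rose in edgeR, against 4.14% and 5.29% of all tested genes. The counts were the same at an unadjusted p under 0.05 (13.9% of all genes each way) and in DESeq2 (8.28% and 8.76%). The abundant type I chains did not pass these tests. With the trend removed 4 fell, the type I chains among them, and 0 rose, against 13.7% and 11.5% of all genes. The types hold few genes, and their counts were not tested against these shares. *COL1A1*, the main chain of type I collagen in bone, skin and scar, had 1395, 1536 and 1445 CPM in lactate 1, 2 and 3, against 1645, 1263 and 1321 CPM in control 1, 2 and 3. Its level per length, 217 ± 10.6 RPKM in lactate cells and 209.6 ± 30.6 RPKM in controls (SD, n = 3 each), was the highest of all collagens and ranked between 242 and 389 of 15297 genes in each library. The groups overlapped, and the log2 change was 0.05 (SE 0.15, edgeR adjusted p = 0.849), which turned to -0.28 (adjusted p = 0.0329, in a range of 0.00174 to 0.996 over 14 alternatives) with the GC and length trend removed. *COL1A2*, its partner chain, had 539, 622 and 529 CPM with lactate and 710.4, 563 and 626 CPM in controls. Its log2 change was -0.17 (SE 0.14, edgeR adjusted p = 0.467), and -0.37 with the trend removed. Here and below, the 14 alternatives include fits without lactate 1 and control 1, the libraries that stood apart. Leaving both out narrows the spread within groups, so low ends of the ranges that come from these fits are not added support.

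*COL3A1*, the single chain of type III collagen, which forms fine fibrils beside type I in distensible tissues, fell. It had 62.4, 85.6 and 65.4 CPM in lactate 1, 2 and 3, against 169, 152 and 173 CPM in control 1, 2 and 3. Every lactate library lay below every control by a wide gap. The log2 change was -1.21 (SE 0.16, edgeR adjusted p = 0.00492), and the call held in all 14 alternatives. *COL3A1* made up 1.80% ± 0.224 of collagen RPKM in lactate cells and 4.59% ± 0.2995 in controls (SD, n = 3 each). The gene lies at chr2:188974320-189012746 on the plus strand of GRCh38, and *COL5A2*, a type V chain next to it on the minus strand, missed the threshold. *COL5A2* had 107, 145 and 128 CPM with lactate and 109, 107 and 131 CPM in controls, with a log2 change of 0.13 (edgeR adjusted p = 0.621).

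*COL5A3* (chr19:9959561-10010471, minus strand), the least common of the type V chains, which regulate the diameter of fibrils, also fell. It had 1.79, 1.90 and 1.56 CPM in lactate 1, 2 and 3, against 5.85, 4.62 and 4.17 CPM in control 1, 2 and 3, with no overlap. Its log2 change was -1.48 (SE 0.24, edgeR adjusted p = 0.00947). Without lactate 3 it was -1.41 (adjusted p = 0.0619) and without control 2 it was -1.53 (adjusted p = 0.0558), in a range of 3.72e-06 to 0.0619 over 14 alternatives. *COL5A1*, the chain found in nearly all type V molecules, had 170.4, 224 and 230.5 CPM with lactate and 181, 149 and 168 CPM in controls. These overlapped, with a log2 change of 0.33 (SE 0.16, edgeR adjusted p = 0.216), and 0.01 with the trend removed. *COL11A2*, a chain of cartilage type XI collagen, had 2.52, 1.61 and 1.96 CPM with lactate and 1.67, 1.09 and 0.905 CPM in controls, overlapping, with a log2 change of 0.70 (edgeR adjusted p = 0.210). The remaining tested fibrillar genes, *COL24A1* and *COL27A1*, had log2 changes of 0.27 and -0.10 and missed the threshold. The value for *COL27A1* turned to 0.07 without lactate 1.

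Among basement membrane chains, 2 of 4 tested genes rose and 1 fell in edgeR, against 5.29% and 4.14% of all tested genes. *COL4A1* and *COL4A2*, which form the ubiquitous type IV network together, rose, while *COL4A6* fell and its neighbour *COL4A5* missed the threshold. *COL4A2* (chr13:110305812-110513209, plus strand) had 325, 392 and 427 CPM in lactate 1, 2 and 3, against 201, 175 and 191 CPM in control 1, 2 and 3. The lowest lactate library exceeded the highest control. The fitted log2 change was 1.01 (SE 0.15, edgeR adjusted p = 0.00644), 0.66 with the trend removed (adjusted p = 0.00437), and 0.96 without control 2, where the call was lost (adjusted p = 0.0579, in a range of 2.65e-14 to 0.0579 over 14 alternatives). Per length it was the most abundant type IV chain, at 58.7 ± 7.998 RPKM in lactate cells and 29.1 ± 2.05 RPKM in controls (SD, n = 3 each), or 8.22% and 4.498% of collagen RPKM.

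*COL4A1* (chr13:110148963-110307233, minus strand) had 79.9, 104 and 105 CPM in lactate 1, 2 and 3, against 51.6, 52.8 and 64.6 CPM in control 1, 2 and 3. The groups did not overlap, and lactate 1 was the lowest of its group for both chains. The log2 change was 0.77 (SE 0.17, edgeR adjusted p = 0.0260), and 0.54 with the trend removed. The call was lost without lactate 2 (0.71, adjusted p = 0.0774), without lactate 3 (0.71, adjusted p = 0.129) and without control 2 (0.73, adjusted p = 0.145), in a range of 8.62e-09 to 0.145 over 14 alternatives. The *COL4A1* to *COL4A2* count ratio was 0.246, 0.266 and 0.245 in lactate libraries and 0.257, 0.303 and 0.338 in controls, overlapping. The log2 difference was -0.24 (exact permutation test, two-sided, p = 0.2), and -0.10 with the trend removed.

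*COL4A1* and *COL4A2* start head to head, as do *COL4A5* and *COL4A6*. In RefSeq (GRCh38.p14) the starts of the first pair, at 110307157 and 110307284 on chromosome 13, have 126 bases between them, and those of *COL4A6* and *COL4A5*, at 108439458 and 108439838 on chromosome X, have 379. Shown here, because *COL4A1* and *COL4A2* rose and *COL4A6* fell, are all bases between the type IV starts on chromosome 13 (chr13:110307158-110307283, plus strand) and the bases before the *COL4A6* start (chrX:108439459-108439708, minus strand). Capitals mark the CCAAT box (CCAAT, the site of the factor NF-Y) and the GC box (GGGCGG, the site of Sp1 family factors) on either strand.
COL4A1-COL4A2: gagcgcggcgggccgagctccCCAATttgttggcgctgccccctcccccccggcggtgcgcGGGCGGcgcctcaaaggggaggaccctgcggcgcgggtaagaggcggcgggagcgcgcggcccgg
COL4A6: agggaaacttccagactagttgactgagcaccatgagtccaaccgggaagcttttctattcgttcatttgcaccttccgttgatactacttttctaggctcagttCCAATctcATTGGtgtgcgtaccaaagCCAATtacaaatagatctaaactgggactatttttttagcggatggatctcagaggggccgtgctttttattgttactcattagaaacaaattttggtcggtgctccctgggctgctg
The interval on chromosome 13 had 1 CCAAT box and 1 GC box in 126 bases of 80.2% G and C. The *COL4A6* stretch had 3 CCAAT boxes and 0 GC boxes in 250 bases of 44.0% G and C.

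*COL4A6* (chrX:108155607-108439497, minus strand), a chain of the type IV network around smooth muscle and under some epithelia, had 16.1, 22.8 and 17.3 CPM in lactate 1, 2 and 3, against 44.6, 44.2 and 46.6 CPM in control 1, 2 and 3. The controls lay close together and all lactate libraries far below them. Its log2 change was -1.27 (SE 0.18, edgeR adjusted p = 0.00548), and the call held in all 14 alternatives. *COL4A5*, its partner chain across the shared start region and the gene mutated in X-linked Alport syndrome, had 19.0, 26.3 and 22.1 CPM with lactate and 25.6, 30.04 and 34.1 CPM in controls. These overlapped in 1 library (lactate 2 above control 1), with a log2 change of -0.41 (SE 0.19, edgeR adjusted p = 0.188) and -0.52 with the trend removed (adjusted p = 0.0283, in a range of 5.48e-05 to 0.507 over 14 alternatives). The *COL4A6* to *COL4A5* count ratio, added after values were seen and so not tested, was 0.848, 0.868 and 0.784 in lactate libraries and 1.75, 1.47 and 1.37 in controls.

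In the beaded filament type, 1 of 3 chains rose and 0 fell in edgeR, against 5.29% and 4.14% of all tested genes. *COL6A2* (chr21:46098097-46132849, plus strand), which joins the other type VI chains in each filament unit, had 285, 253 and 275 CPM in lactate 1, 2 and 3, against 176, 135 and 124 CPM in control 1, 2 and 3. The groups did not overlap. The fitted log2 change was 0.90 (SE 0.16, edgeR adjusted p = 0.0140), and 0.45 with the trend removed (adjusted p = 0.00578). The call was lost without lactate 3 (0.89, adjusted p = 0.0797), without control 2 (0.85, adjusted p = 0.0994) and without control 3 (0.80, adjusted p = 0.0557), in a range of 1.96e-12 to 0.0994 over 14 alternatives. Per length it was the most abundant type VI chain with lactate, at 78.3 ± 4.79 RPKM, against 42.0 ± 7.94 RPKM in controls (SD, n = 3 each).

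*COL6A1*, the neighbouring type VI gene on chromosome 21, had 201, 236 and 240.4 CPM with lactate and 227, 177 and 180.5 CPM in controls. The groups overlapped, with a log2 change of 0.21 (SE 0.15, edgeR adjusted p = 0.387) that turned to -0.16 with the trend removed. *COL6A3*, the longest type VI chain, had 464, 742 and 808 CPM with lactate and 466, 441 and 552 CPM in controls. Lactate 1 lay within the controls and the other lactate libraries above them. The log2 change was 0.47 (SE 0.21, edgeR adjusted p = 0.185), and 0.67 without lactate 1 (adjusted p = 0.0367, in a range of 3.34e-07 to 0.466 over 14 alternatives).

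The 7 chain pairs compared within libraries, where scaling between libraries plays no part, cover chains of one molecule or one fibril. The *COL6A1* to *COL6A2* count ratio was 0.704, 0.934 and 0.875 in lactate libraries and 1.29, 1.31 and 1.45 in controls, a log2 difference of -0.70. That of *COL3A1* to *COL1A1*, which coassemble in fibrils, was 0.0447, 0.0557 and 0.0453 in lactate libraries and 0.103, 0.120 and 0.131 in controls, a log2 difference of -1.28. That of *COL5A3* to *COL5A1* differed by -1.78 and that of *COL1A1* to *COL1A2* by 0.22 on the log2 scale. None of these 4 overlapped between groups, and each had p = 0.1 in the two-sided exact permutation test (adjusted over the 7 pairs, 0.175), the smallest p that 3 against 3 allows. The *COL6A3* to *COL6A2* and *COL5A1* to *COL5A2* ratios overlapped, with log2 differences of -0.48 and 0.19 (exact p = 0.3 each). The GC and length trend does not cancel in such ratios. With it removed, these last differences were -0.18 and -0.13. Those of *COL6A1* to *COL6A2*, *COL3A1* to *COL1A1*, *COL5A3* to *COL5A1* and *COL1A1* to *COL1A2* were then -0.63, -1.09, -1.88 and 0.10.

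**Figure D3:**
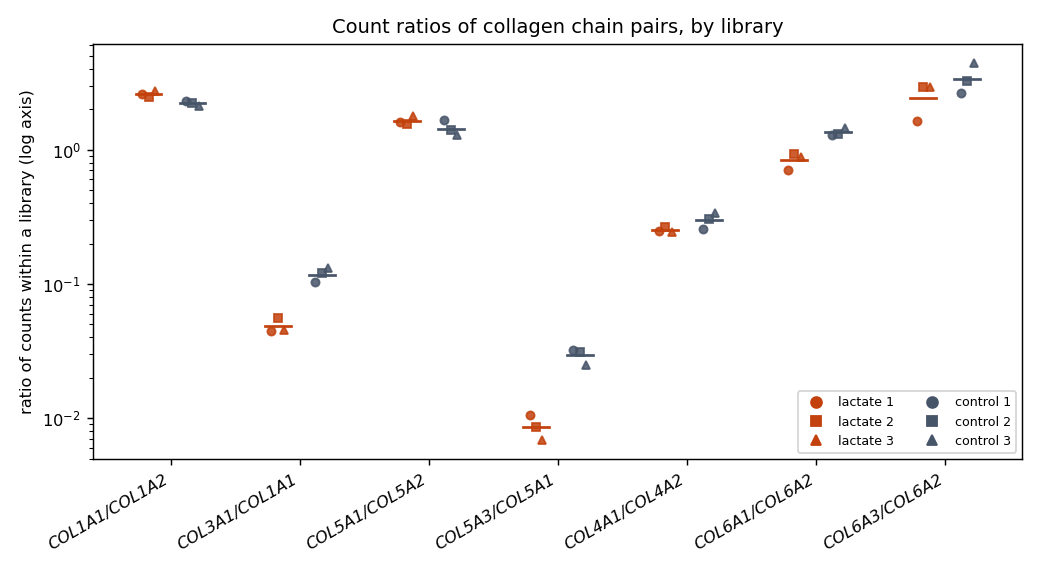
Ratio of counts between 2 collagen chains within each library, on a log axis, for the 7 pairs compared, with a symbol for each library and a line at the geometric mean of the group. Lactate and control libraries separate for *COL3A1* to *COL1A1*, *COL5A3* to *COL5A1*, *COL6A1* to *COL6A2* and, narrowly, *COL1A1* to *COL1A2*, and overlap for the other 3 pairs.

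Among FACIT collagens, 1 of 5 tested genes rose and 1 fell in edgeR, against 5.29% and 4.14% of all tested genes. Both were at low levels. *COL14A1*, a fibril-surface collagen of tendon and skin, had 1.16, 1.49 and 1.51 CPM in lactate 1, 2 and 3, against 3.97, 3.62 and 4.80 CPM in control 1, 2 and 3. Every lactate library was far below every control. Its log2 change was -1.56 (SE 0.25, edgeR adjusted p = 0.00915), and the call held in all 14 alternatives. *COL9A2* (chr1:40300487-40317813, minus strand), a chain of type IX collagen best known from cartilage, had 2.42, 2.23 and 2.99 CPM with lactate and 1.47, 1.05 and 0.826 CPM in controls. It did not overlap and rose by a log2 change of 1.17 (SE 0.31, edgeR adjusted p = 0.0465). This was the highest adjusted p of the 11 calls, and the call held in 8 of 14 alternatives. With the trend removed it was 0.80 (adjusted p = 0.0579), and it was also lost without lactate 1 (1.20), lactate 2 (1.26), lactate 3 (1.03), control 2 (1.12) or control 3 (0.99), with adjusted p from 0.000716 to 0.188 over 14 alternatives.

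*COL9A3*, another type IX chain, had 3.57, 3.39 and 2.78 CPM with lactate and 3.23, 3.28 and 2.75 CPM in controls, with a log2 change of 0.07 that turned to -0.40 with the trend removed and missed the threshold both times (edgeR adjusted p = 0.866 and 0.222). *COL12A1*, a long FACIT of mechanically loaded tissue and the most abundant of its type per length by group mean, though not in lactate 1, had 101, 226 and 206 CPM with lactate and 206, 240.2 and 346 CPM in controls. Lactate 1 was well below all other libraries, and lactate 2 and lactate 3 both lay above control 1. The log2 change was -0.57 (SE 0.30, edgeR adjusted p = 0.247), and -0.51 with the trend removed (adjusted p = 0.0497, in a range of 5.28e-05 to 0.606 over 14 alternatives). *COL16A1* had 59.3, 62.5 and 58.5 CPM with lactate and 82.9, 61.2 and 68.4 CPM in controls, with a log2 change of -0.24 (edgeR adjusted p = 0.343) and -0.60 with the trend removed (adjusted p = 0.00316, in a range of 7.19e-06 to 0.553 over 14 alternatives).

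Among the remaining collagens, 1 of 7 tested genes rose and 2 fell in edgeR, against 5.29% and 4.14% of all tested genes. At an unadjusted p under 0.05, 4 were higher and 2 lower, against 13.9% of all genes each way. The rise was the largest of any tested member, and the falls were those of *COL7A1* and *COL17A1*. *COL8A2* (chr1:36095236-36125220, minus strand), a short-chain collagen of the corneal Descemet membrane and of vessel walls, had 3.78, 2.56 and 4.71 CPM in lactate 1, 2 and 3, against 0.711, 0.428 and 1.02 CPM in control 1, 2 and 3. The lowest lactate library was above the highest control. The fitted log2 change was 2.33 (SE 0.37, edgeR adjusted p = 0.00877), about 5.03-fold, and without lactate 3 it was 2.11 (adjusted p = 0.0504, in a range of 5.7e-07 to 0.0504 over 14 alternatives). Its partner *COL8A1* was far more abundant, at 10.2 ± 1.60 RPKM in lactate cells and 8.98 ± 1.07 RPKM in controls, against 0.789 ± 0.230 RPKM and 0.154 ± 0.0637 RPKM for *COL8A2* (SD, n = 3 each). *COL8A1* had 49.3, 67.6 and 57.7 CPM with lactate and 45.0, 51.4 and 57.3 CPM in controls, overlapping, with a log2 change of 0.19 (edgeR adjusted p = 0.498).

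*COL7A1* (chr3:48564073-48595267, minus strand), the sole chain of the anchoring fibrils that tie epidermis to dermis, had 40.4, 45.2 and 42.1 CPM in lactate 1, 2 and 3, against 103, 78.8 and 95.2 CPM in control 1, 2 and 3. The groups were far apart. The log2 change was -1.12 (SE 0.15, edgeR adjusted p = 0.00538), -1.53 with the trend removed, and the call held in all 14 alternatives. *COL17A1* (chr10:104031286-104085957, minus strand), a transmembrane collagen of epithelial hemidesmosomes, had 13.3, 11.1 and 12.7 CPM with lactate and 28.95, 24.0 and 25.6 CPM in controls. It likewise did not overlap, with a log2 change of -1.08 (SE 0.17, edgeR adjusted p = 0.00822), and -1.10 without lactate 3 (adjusted p = 0.0554, in a range of 7.52e-10 to 0.0554 over 14 alternatives).

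The bases before the RefSeq starts (GRCh38.p14) of *COL8A2* (chr1:36125223-36125472, minus strand) and *COL17A1* (chr10:104085881-104086130, minus strand) are shown, with the same capitals as above. They come from the mixed group of remaining collagens, not from a single collagen type, and were called in opposite directions.
COL8A2: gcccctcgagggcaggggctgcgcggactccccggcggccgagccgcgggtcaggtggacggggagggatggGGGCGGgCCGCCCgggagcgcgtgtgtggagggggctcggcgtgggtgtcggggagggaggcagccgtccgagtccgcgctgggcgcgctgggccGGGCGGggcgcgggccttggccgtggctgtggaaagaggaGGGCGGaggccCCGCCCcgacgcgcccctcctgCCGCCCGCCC
COL17A1: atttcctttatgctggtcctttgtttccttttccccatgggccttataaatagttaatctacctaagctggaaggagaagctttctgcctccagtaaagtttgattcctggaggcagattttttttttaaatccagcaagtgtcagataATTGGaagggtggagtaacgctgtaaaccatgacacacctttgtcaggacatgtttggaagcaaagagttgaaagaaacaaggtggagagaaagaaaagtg
The *COL8A2* stretch had 7 GC boxes, overlapping matches counted separately, and 82.0% G and C. The *COL17A1* stretch had 0 GC boxes, 1 CCAAT box and 40.4% G and C. Other members that fell did hold GC boxes in the same stretch. There were 3 before *COL7A1* (60.8% G and C) and 1 before *COL5A3* (66.0%). Of members that rose, *COL6A2* had 4 (79.6%) and *COL9A2* had 3 (71.6%). RefSeq windows of 250 bases before and 50 after the start were at hand for 20 of the 28 tested members. Of these, 13 held a GC box and 6 a CCAAT box, against 44.6% and 35.7% of all 27305 windows of that length. The windows of *COL4A1* and *COL4A2* overlap, as do those of *COL4A5* and *COL4A6*, so 1 box can count for both genes of a pair. The study reported AP-1 motifs enriched over the genome in promoter regions that closed with lactate, and examined AP-1 closely at another promoter. Its regions reached further from the start than the windows here. The AP-1 motif TGANTCA was in 0 of 20 member windows and in 7.76% of all windows. With so few and such short windows this cannot show whether collagen promoters lack the motif. *COL1A1*, *COL1A2*, *COL3A1*, *COL5A2*, *COL6A1*, *COL8A1*, *COL9A3* and *COL14A1* had no window. The core of the hypoxia response motif, ACGTG, was in 3 of 20 and in 21.6% of all. Member windows had a median of 66.2% G and C, against 58.3% over all windows. A match here is a description of letters and not of binding.

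**Figure D4:**
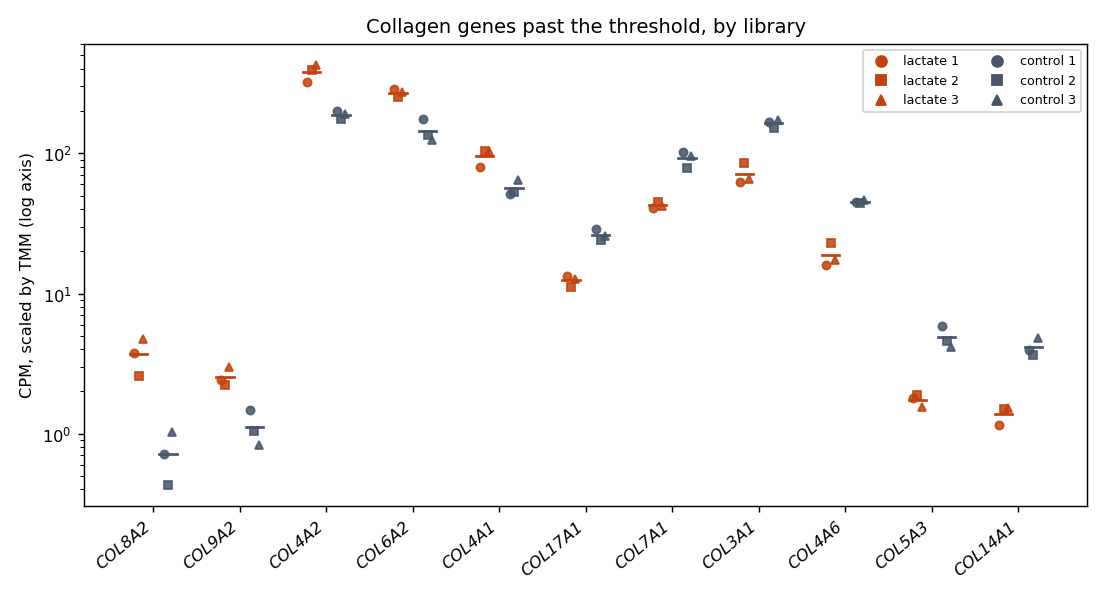
Level in each library, in CPM scaled by TMM on a log axis, of the 11 collagen genes past the threshold, ordered by fold change, with a symbol for each library and a line at the group mean. Lactate libraries lie above all controls for the first 5 genes and below all controls for the other 6, at levels that span *COL4A2* at 427 CPM and *COL8A2* at 0.428 CPM.

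Another 3 members lay above the controls in every lactate library without passing the test. *COL15A1*, a multiplexin of the outer basement membrane zone, had 2.05, 2.48 and 2.29 CPM with lactate and 0.871, 0.809 and 1.57 CPM in controls (log2 change 1.07, SE 0.33, edgeR adjusted p = 0.0726). *COL13A1*, a transmembrane collagen of cell adhesions, had 31.0, 30.02 and 31.2 CPM with lactate and 23.7, 19.0 and 17.5 CPM in controls (log2 change 0.61, SE 0.17, edgeR adjusted p = 0.0538). *COL13A1* passed the threshold in 6 of 14 alternatives and *COL15A1* in 2. *COL18A1*, the parent of endostatin, had 29.5, 27.2 and 29.3 CPM with lactate and 24.3, 18.4 and 18.5 CPM in controls, with a log2 change of 0.49 (edgeR adjusted p = 0.107) and 0.01 with the trend removed. It shares 16.4% of its exonic bases with *SLC19A1* on the opposite strand, and whether counting used strand is not given in the sources used here.

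The 9 listed members below the filter were *COL2A1*, *COL4A3*, *COL4A4*, *COL11A1*, *COL19A1*, *COL21A1*, *COL25A1*, *COL26A1* and *COL28A1*, several of them known from cartilage, the kidney filter or neurons. They had 0 to 13 counts a library and 6 to 41 counts over all 6 libraries, and 0 of them passed the threshold when all 37 members were tested with no filter, so a difference between groups was not detectable at this depth. *COL19A1* and *COL21A1* had 0 counts in every lactate library, against 5, 0 and 2 for the first and 0, 1 and 5 for the second in control 1, 2 and 3.

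Genes of the collagen pathway other than the chains were counted by step, in the same fit. Of all tested genes, 5.29% rose and 4.14% fell in edgeR, 13.9% were higher and 13.9% lower at an unadjusted p under 0.05, and 8.76% rose and 8.28% fell in DESeq2. The lists are short, and their counts were not tested against these shares. Of 18 genes that fold and modify chains in the endoplasmic reticulum, 3 rose and 0 fell in edgeR, against 10 and 0 at an unadjusted p under 0.05 and 6 and 0 in DESeq2. Their median log2 change was 0.36. Of those 3, the largest log2 change was that of *LEPREL4*, a partner of the collagen hydroxylases, at 95.9 ± 11.1 CPM in lactate cells and 55.0 ± 15.2 CPM in controls (SD, n = 3 each; log2 change 0.80, edgeR adjusted p = 0.0439). *FKBP10*, a collagen prolyl isomerase, had a log2 change of 0.74 (edgeR adjusted p = 0.0280). Of 8 genes of collagen export, 0 passed the edgeR test, 0 had an unadjusted p under 0.05 and 0 passed DESeq2. Of 12 tested genes that remove propeptides or crosslink fibrils, 4 rose and 0 fell in edgeR, and 4 and 1 did so both at an unadjusted p under 0.05 and in DESeq2. Their median was 0.23 and turned to -0.15 with the trend removed. *ADAMTS2*, which cuts the amino-terminal propeptide of fibrillar collagens, had 68.0, 67.1 and 68.9 CPM in lactate 1, 2 and 3, against 29.6, 23.8 and 25.9 CPM in control 1, 2 and 3 (log2 change 1.36, edgeR adjusted p = 0.00227). *LOXL3*, a lysyl oxidase, had a log2 change of 1.21 (edgeR adjusted p = 0.00462).

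Of 8 collagen receptors 1 rose and 0 fell in edgeR (5.29% and 4.14% of all genes), and 1 and 2 did so both at an unadjusted p under 0.05 and in DESeq2 (8.76% and 8.28% of all genes). Their median log2 change was -0.27. The receptor that rose was *MRC2*, which takes up collagen for lysosomal breakdown, at 199 ± 2.47 CPM in lactate cells and 87.1 ± 12.8 CPM in controls (SD, n = 3 each; log2 change 1.19, edgeR adjusted p = 0.00387). Of 6 tested genes of collagen degradation, 0 rose and 2 fell in edgeR, against 1 and 3 at an unadjusted p under 0.05 and 1 and 2 in DESeq2. Their median was -0.79. *MMP3*, stromelysin 1, had 2.26, 1.94 and 0.941 CPM in lactate 1, 2 and 3, against 79.0, 61.2 and 62.8 CPM in control 1, 2 and 3, with a log2 change of -5.32 (edgeR adjusted p = 0.00021). *CTSK*, the collagen-cleaving cathepsin K, fell by 0.77 on the log2 scale (edgeR adjusted p = 0.0280). Of 10 tested proteins that bind fibrils or the matrix around them, 2 rose and 2 fell in edgeR, against 3 and 5 at an unadjusted p under 0.05 and 3 and 4 in DESeq2. Their median was -0.34. *BGN*, the proteoglycan biglycan, had a log2 change of 1.28 (edgeR adjusted p = 0.00507), and *THBS1*, thrombospondin 1, one of -0.93 (edgeR adjusted p = 0.0311).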

How the data were processed

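RNA from WPMY-1 cells with or without lactate was poly(A) selected, made into directional libraries and sequenced single end, per the labels. The study's library section describes a 3′ end kit, so the labels were followed. The authors deposited raw counts for each gene. STAR, DESeq2 and hg38 are named in the submitters' processing notes, and versions and strand setting are not given in the sources used here. Groups came from the treatment labels, which name no batch, and p-values measure the spread between these biological replicates.

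The main test was the two-sided quasi-likelihood F test of edgeR 4.0.16 (R 4.3.3), after filterByExpr and TMM scaling, and p-values were adjusted by Benjamini-Hochberg across 13188 genes (threshold 0.05). The SE was taken as the absolute log2 change over the root of F. Variation between replicates was 20.2% (common biological coefficient). Depth was 20238653 to 46505372 counts a library. CPM were scaled by TMM, and RPKM used the longest GENCODE 29 transcript, matched for 96.1% of symbols. Count ratios had 0.5 added to each count for the test. The trend alternative fitted smooth curves with 5 degrees of freedom on GC content and log2 length to each library and entered them as offsets, differences between groups included. Other alternatives were RLE or total-count scaling, DESeq2 1.42.0, other filters, and fits without 1 or 2 libraries. Fits were tested on simulated counts that held no GC and length trend and no libraries standing apart. That test therefore does not cover these features of the data.

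Members, lists and types were chosen with earlier results of these data known. Given with all libraries were members past the threshold, the most abundant of each type, partners in the pairs, and up to 4 of the largest changes that missed. *COL4A5*, *COL9A3*, *COL16A1* and *COL18A1* were added after their values were seen. Pathway lists gave up to 2 genes each.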

Additional observations from a re-analysis of the deposited data

How the results depend on the processing

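All 11 collagens kept their direction in all 14 alternatives. All 11 stayed past the threshold with RLE scaling, total-count scaling, DESeq2, no filter, a filter of 1 CPM in 3 libraries, without control 1, and without replicate 1 of both groups. The last of these leaves out the libraries that stood apart. The edgeR scaling and filter alternatives differ little from the main fit, so calls that hold in any of these are weak support. With the GC and length trend removed 10 stayed. Without lactate 1, 2 or 3 it was 10, 9 and 5, and without control 2 or 3 it was 6 and 9. The collagens that rose numbered 5, and 1 to 7 when single libraries were left out (1 without lactate 3 and 1 without control 2), 11 with 4 libraries and 8 with 4 libraries and the trend removed. The collagens that fell numbered 6, and 4 to 6 without single libraries, 11 with the trend removed, and 12 with 4 libraries and the trend removed. Over all genes 1244 were called, 2247 with DESeq2, 3228 with the trend removed, 172 to 3092 without single libraries (172 without control 2, 3092 without control 1), 6295 with 4 libraries and 5649 with 4 libraries and the trend removed. The cause of these shifts was not tested.

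Changes of direction all fell on genes or pairs that missed the threshold in the fit to all 6 libraries. *COL1A1* turned to -0.28 with the trend removed and -0.25 with 4 libraries and the trend removed, and ran over -0.0272 (without control 2) to 0.174 (without control 1) when single libraries were left out. *COL6A1* turned to -0.16 and -0.0470 under the first and second of these. *COL9A3* turned to -0.40 and -0.46 likewise, and to -0.0035 without lactate 1 and -0.0080 without control 3, with 0.168 at the other end (without lactate 3). *COL27A1* turned to 0.0698 without lactate 1 (-0.273 without lactate 3) and 0.11 with 4 libraries. The *COL5A1* to *COL5A2* ratio turned to -0.13 with the trend removed. The cause was not tested.

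No paired analysis was possible because replicate numbers were given in accession order and pair nothing. Members under about 5 CPM, such as *COL8A2*, *COL9A2*, *COL5A3* and *COL14A1*, rest on few counts, and 9 members missed the filter on low counts. With no filter all 37 members were tested, and 0 of these 9 passed the threshold.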
